A study of Macaca mulatta with 9 samples.

Results

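Early biopsies of pig kidneys carried by rhesus macaques were compared between donor lines: 3 libraries titled 1KO.1TG early R against 3 titled 3KO.7TG early bx, which are 6 of the 9 libraries in the series, over all 767 probes of the nCounter Human Organ Transplant Panel. nCounter counts single RNA molecules through coloured barcodes on hybridised probes, without amplification. Total RNA had been extracted from renal biopsies kept as formalin-fixed, paraffin-embedded blocks, all hosts were labelled male, and a further group of 3, 3KO.7TG late R, entered the fits only to help estimate the spread. The donor pig lines were 1KO.1TG and 3KO.7TG. KO and TG are the field's usual shorthand for knockout and transgene, but the labels name no altered gene, no promoter that drives one, no age and no treatment, and they spell out neither R nor bx, nor the time that early stands for. The extraction label speaks of an allograft, although the series is of xenografts. Between the early groups, line and the R or bx label change together, so this contrast by itself cannot tell their parts apart. Whether the replicates of a group were different animals is not stated, and the p-values then reflect only the spread among these libraries, which may be technical.

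A pig organ in a primate meets preformed antibody, complement, coagulation factors that work poorly across the species barrier, and phagocytes that fail to read pig surface signals. Some donor pigs are therefore given human proteins that act at these steps: CD46, CD55 and CD59 restrain complement on the cell surface, THBD (thrombomodulin) turns thrombin towards anticoagulation, CD47 signals to macrophages not to engulf the cell, and TNFAIP3 (A20) dampens NF-κB signalling. Rejected grafts in general take up neutrophils, monocytes and platelets, and injured tubules switch on stress genes. The probes were designed against human transcripts, so a value is the signal of a probe, whether the RNA came from pig graft, macaque host or a human transgene.

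Replicate 3 of 1KO.1TG early R held 21725 counts in all, against 657340 to 1475345 in the other 5 early libraries, and stood 51.4-fold below the median total of the rest of the series. The viral probes, which serve here as a background level, gave at most 17 counts in any library, and only 157 of 767 probes exceeded 17 in replicate 3. It still carried kidney signal: UMOD, the tubular protein uromodulin, gave 452 counts and AQP2, the collecting duct water channel, gave 90. Over its 157 probes above background its log2 levels correlated with those of replicate 1 of its own group at r = 0.72, with replicate 2 at r = 0.59, and with the 3KO.7TG early bx libraries at r = 0.65 to 0.76, values across probes that share the pull of abundant genes. Every result is therefore given with all libraries and again without replicate 3. Counts were scaled with trimmed-mean factors before fitting, and the factor of 2.71 for replicate 3 gave it an effective size of 58880.

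The genes called in both fits were ones that multi-transgenic donor pigs can carry as human transgenes. With all libraries, limma called 3 of 767 probes (0.391%) at an adjusted p under 0.05, all lower in 1KO.1TG early R: CD46, THBD and CD47. None was called higher (0%), although 49 probes (6.39%) were higher and 52 (6.78%) lower at an unadjusted p under 0.05. Without replicate 3, limma called 14 probes (1.83%), 4 lower (0.522%) and 10 higher (1.3%), while the unadjusted test passed 154 probes (20.1%), with 100 higher (13%) and 54 lower (7.04%). The 4 lower ones were CD46, THBD and CD47 again and SOCS1.

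Counts of CD46 in replicates 1 to 3 were 102, 170 and 11 for 1KO.1TG early R, against 30759, 14032 and 18373 for 3KO.7TG early bx; counts below are given in the same order. It ranked 7th, 11th and 14th of all probes by count in the second group and 421st, 392nd and 296th in the first. The groups were far apart, with a log2 fold change (1KO.1TG early R over 3KO.7TG early bx) of −7.66 ± 0.54 (SE; limma adjusted p = 4.14e-06) and of −7.65 ± 0.55 without replicate 3 (limma adjusted p = 7.55e-05). At the CD46 level of the 3KO.7TG early bx libraries, the total of replicate 3 would have given 334.9 to 810.5 counts, and it held 11. These 11 counts lay within background and bound its level from above only, on the side of its labelled group. The 3KO.7TG late R libraries carry the R label on the same line as 3KO.7TG early bx. There CD46 ranked 8th, 11th and 14th of all probes, CD47 9th, 10th and 13th, and THBD 13th, 16th and 17th. Late R also differs in its time label, and the part of the line was not tested.

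THBD gave 46, 296 and 19 counts against 23988, 10494 and 11248. All 3 libraries of the first group lay below all 3 of the second, although replicates 1 and 2 of 1KO.1TG early R differed from each other more for this gene than for CD46. The log2 fold change was −7.26 ± 0.78 (limma adjusted p = 2.41e-04) and −7.32 ± 0.74 without replicate 3 (limma adjusted p = 5.69e-04). CD47 gave 827, 826 and 12 counts against 27307, 12841 and 18628. It stayed further above background than CD46 and THBD in replicates 1 and 2 of 1KO.1TG early R, where it ranked 154th and 181st of all probes. Its log2 fold change was −5.41 ± 0.61 (limma adjusted p = 2.82e-04) and −4.91 ± 0.46 without replicate 3 (limma adjusted p = 4.22e-04). At the 3KO.7TG early bx level replicate 3 would have held 339.5 to 719.6 counts of CD47 by its total, against 12 observed, and 205.0 to 632.1 of THBD, against 19.

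The other 3 measured candidates did not share this pattern. TNFAIP3 gave 1137, 2027 and 24 counts against 3999, 1955 and 2479. After scaling its groups did not overlap, but its log2 fold change of −1.95 ± 0.67 did not pass (limma adjusted p = 0.245), nor did −1.24 ± 0.55 without replicate 3 (limma adjusted p = 0.241). CD55 gave 211, 817 and 11 counts against 126, 69 and 226, at log2 fold changes of 1.07 ± 0.60 and, without replicate 3, 1.29 ± 0.65 (limma adjusted p = 0.486 and 0.326). CD59, which blocks the membrane attack complex, gave 620, 1424 and 10 counts against 651, 346 and 856, with overlap between the groups.

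**Figure D1:**
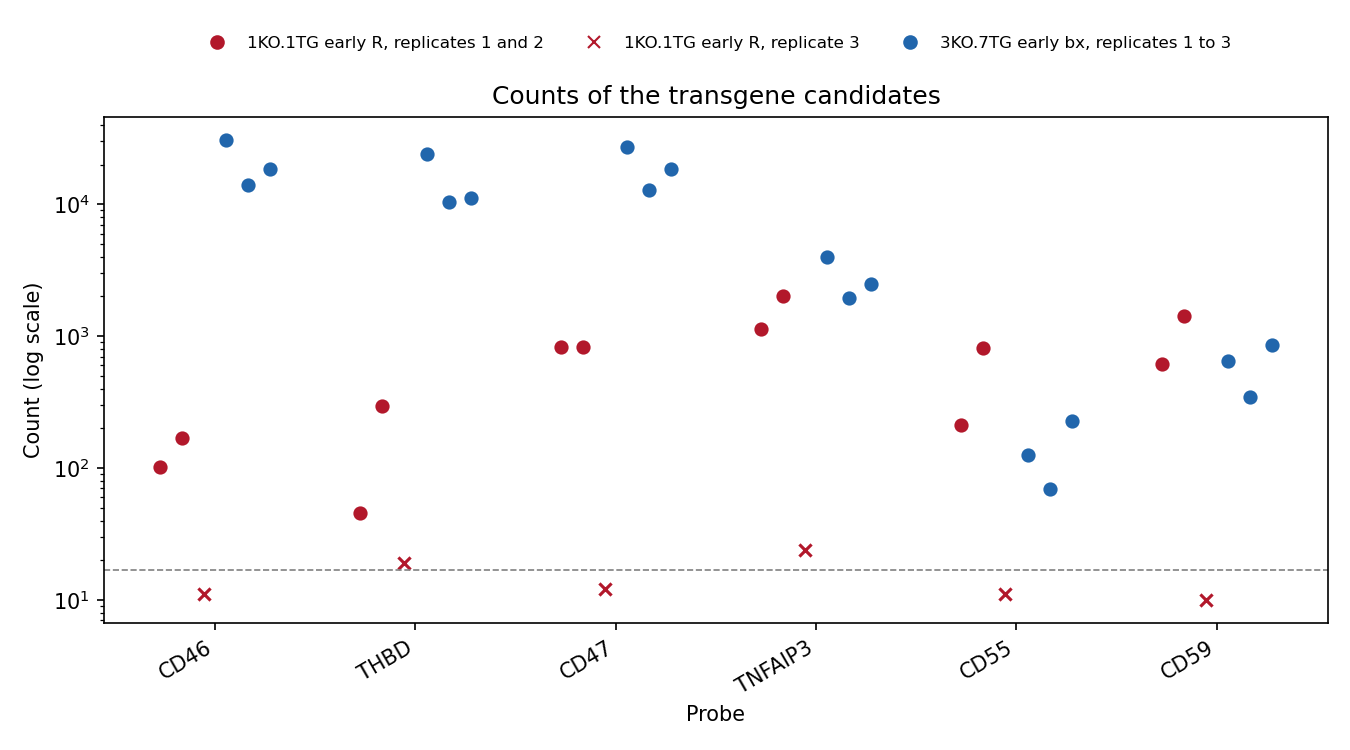
Counts of the 6 measured transgene candidates in each early library, on a log axis; the dashed line marks 17 counts, the highest of the viral probes. The lowest of the CD46, THBD and CD47 counts in 3KO.7TG early bx is 10494 and the highest in 1KO.1TG early R is 827, while CD55 and CD59 overlap before scaling.

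The 10 probes called higher in 1KO.1TG early R without replicate 3 fell into 4 kinds: myeloid effector products, platelet chemokines, inhibitory receptors of myeloid and B cells, and stress genes, among them an epithelial keratin. The first kind held S100A9 and S100A8, the paired calcium-binding proteins that neutrophils and monocytes store in bulk, and MMP9, a gelatinase of neutrophil granules. S100A9 gave 2516, 31242 and 17 counts against 129, 72 and 115. S100A8 gave 1836, 18580 and 6 counts against 74, 60 and 136. Both were far more abundant in replicate 2 than in replicate 1, and both were at or below background in replicate 3. Without replicate 3 their log2 fold changes were 6.03 ± 1.11 and 5.68 ± 1.08 (limma adjusted p = 0.032 for both), and with it 3.54 ± 1.17 and 3.04 ± 1.30 (limma adjusted p = 0.245 and 0.350). MMP9 gave 885, 5282 and 12 counts against 37, 42 and 280, and its log2 fold change was 4.34 ± 0.81 without replicate 3 (limma adjusted p = 0.032) and 3.01 ± 0.91 with it (limma adjusted p = 0.206).

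PPBP and PF4 are chemokines released from platelet granules. PPBP gave 1292, 1375 and 5 counts against 65, 29 and 102, so that replicates 1 and 2 stood at nearly the same level. Its log2 fold change was 4.08 ± 0.46 without replicate 3 (limma adjusted p = 0.0010) and 3.09 ± 0.79 with it (limma adjusted p = 0.170). PPBP was the only one of the 10 to be called in all 26 alternative settings of the fit without replicate 3, at log2 fold changes of 3.52 to 4.83. PF4 gave 459, 1861 and 6 counts against 87, 46 and 101, and passed without replicate 3 at 3.22 ± 0.68 (limma adjusted p = 0.047), with 2.54 ± 0.77 over all libraries (limma adjusted p = 0.206).

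FCGR2B, the inhibitory Fc receptor of B cells and macrophages, gave 553, 1237 and 14 counts against 148, 42 and 120. LILRB2, an inhibitory receptor of myeloid cells that binds MHC class I, gave 603, 713 and 11 against 82, 85 and 199. Their log2 fold changes without replicate 3 were 2.76 ± 0.52 and 2.12 ± 0.41 (limma adjusted p = 0.032 for both), and with it 2.29 ± 0.59 and 1.73 ± 0.49 (limma adjusted p = 0.170 and 0.181). For both genes replicates 1 and 2 lay above every library of 3KO.7TG early bx, and for LILRB2 they stood close together. Being called makes that order likely, and without replicate 3 it held for 18.9% of all probes.

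KRT8, a keratin of simple epithelia that injured tubules upregulate, was the most abundant of the 10, with 19376, 38272 and 124 counts against 3291, 2658 and 2807. CDKN1A (p21, a brake on the cell cycle) gave 2508, 3545 and 18 counts against 529, 273 and 696, and BTG2, an antiproliferative stress-response gene, gave 892, 1257 and 18 against 94, 93 and 373. Without replicate 3 their log2 fold changes were 2.82 ± 0.59, 2.26 ± 0.44 and 2.39 ± 0.46 (limma adjusted p = 0.047, 0.035 and 0.032). With it they were 1.35 ± 0.94, 0.83 ± 0.76 and 1.87 ± 0.55 (limma adjusted p = 0.598, 0.736 and 0.203). Unlike the platelet and myeloid products, KRT8 was above background in replicate 3, and there its scaled level lay below all 3 libraries of 3KO.7TG early bx. That order turned with the scaling. By total counts alone, the 3KO.7TG early bx levels would have given 51.16 to 87.85 counts of KRT8 in replicate 3, against 124 observed.

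**Figure D2:**
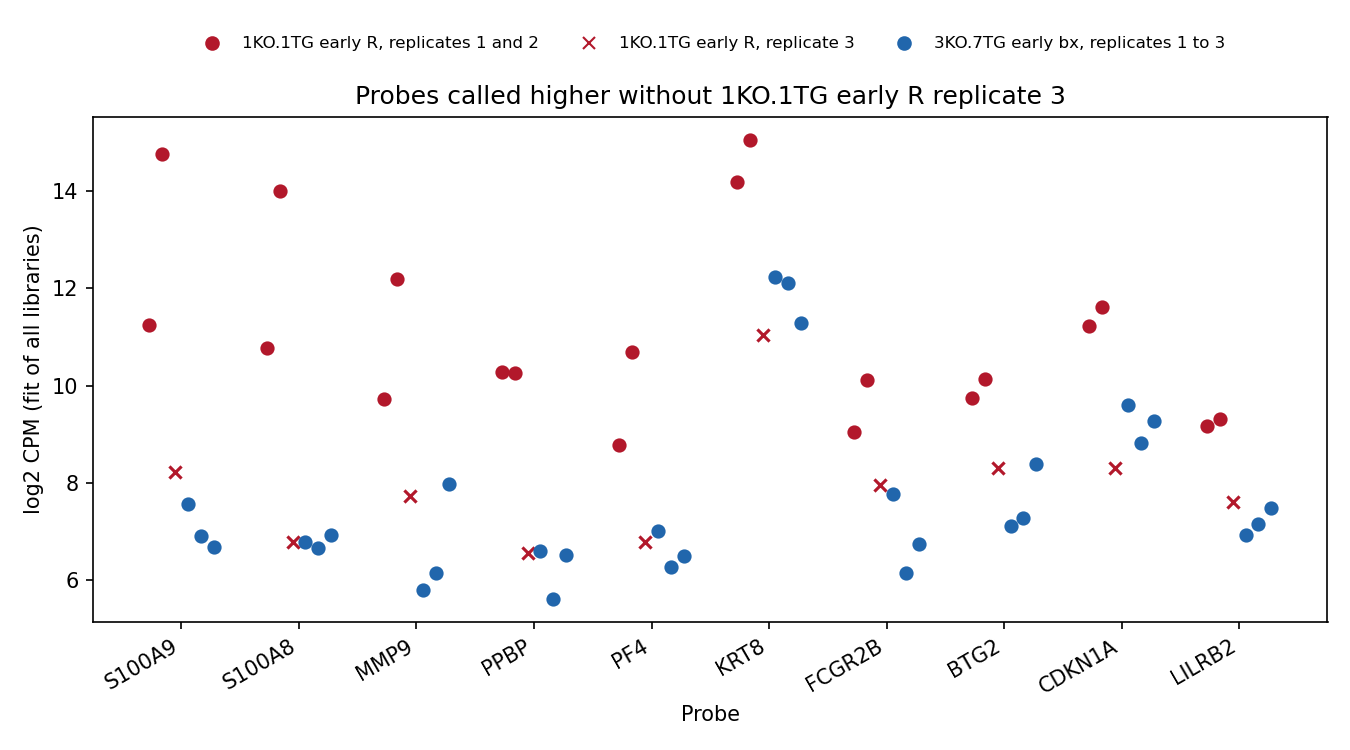
Scaled levels (log2 CPM, counts scaled to the effective library size) of the 10 probes called higher without replicate 3 of 1KO.1TG early R, in each early library. Replicates 1 and 2 lie above all 3 libraries of 3KO.7TG early bx for every one of the 10 probes, an order largely set by picking called probes. Without replicate 3, 18.9% of all probes had that order. Replicate 3 (crosses) lies within or below the range of 3KO.7TG early bx for 7 of the 10. The place of replicate 3 rests on its factor of 2.71: by total counts alone it would lie above that range for all 10. Only 3 of the 10 exceeded background in replicate 3, so for the rest neither place is a measured level.

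Of the 10 probes, BTG2, CDKN1A and KRT8 were above 17 counts in replicate 3. At the level of replicate 1, the total of replicate 3 would have given 18.6 counts of BTG2, 11.5 of FCGR2B and 12.6 of LILRB2, and 18, 14 and 11 were observed. The counts of FCGR2B and LILRB2 lay within background, so their share in replicate 3 was not measured. Observed counts were further below that level for PPBP (26.9 counts at the level of replicate 1, 5 observed), S100A8 (38.3 and 6), S100A9 (52.4 and 17), CDKN1A (52.3 and 18) and KRT8 (403.7 and 124). The factor of 2.71 raises each of those levels further, to 72.95 for PPBP and 1094 for KRT8. When libraries were scaled on their total counts alone, replicate 3 could stay in and 12 probes were called higher, among them all of the 10 except KRT8. With trimmed-mean scaling and all libraries none was called, so the count on the higher side changed with the scaling of replicate 3 as well as with leaving it out.

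The higher calls also rested on replicates 1 and 2 unequally. In the fit without replicate 3, leaving out replicate 2 of that group as well left PPBP as the only probe called higher, and leaving out replicate 1 as well gave 51; in both cases the lone library was taken to vary like the other groups. Without replicate 1, 2 or 3 of 3KO.7TG early bx, 2, 1 and 29 were called higher and 3, 3 and 16 lower. Among the 3KO.7TG late R libraries, leaving out replicate 1 or 3 gave 2 and 3 higher calls. When replicate 3 was kept and replicate 1 left out, there were 10 higher calls that shared no gene with the 10 named here.

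**Figure D3:**
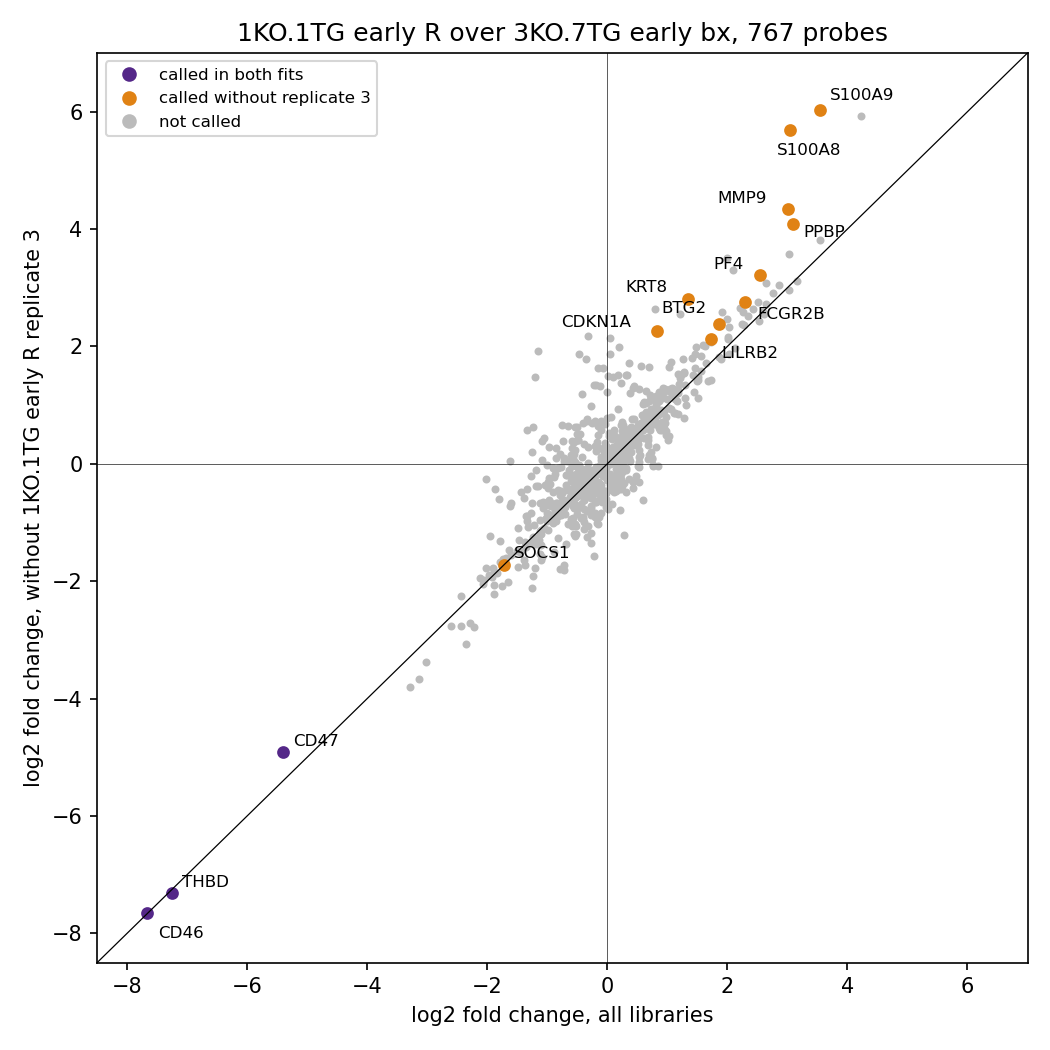
Log2 fold change of each of 767 probes (1KO.1TG early R over 3KO.7TG early bx) with all libraries on the x axis and with replicate 3 of 1KO.1TG early R left out on the y axis; the diagonal marks equal values. CD46, THBD, CD47 and SOCS1 lie near the diagonal, whereas S100A8, S100A9, KRT8 and CDKN1A lie well above it.

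No other granulocyte gene passed in either fit. Of 15 measured genes of the neutrophil list, 14 had a log2 fold change above 0 with all libraries and 15 without replicate 3, where 46.5% and 49.9% of all probes did. Their median log2 fold changes were 2.34 and 2.52, beside −0.07 and −0.00 over all probes. Leaving out replicate 2 of 1KO.1TG early R lowered them to 1.60 and 1.27, and leaving out replicate 1 raised the second to 3.51. Without replicate 3 the groups did not overlap, on the higher side, for 11 of the 15, against 18.9% of all probes. CSF3R, through which G-CSF drives granulocyte production, gave 137, 407 and 13 counts against 21, 21 and 80, or 2.24 ± 0.60 and 2.39 ± 0.58 on the log2 scale with and without replicate 3 (limma adjusted p = 0.170 and 0.067). CEACAM3, a granulocyte receptor for bacteria, gave 163, 329 and 6 counts against 13, 38 and 53 (2.34 ± 0.59 and 2.52 ± 0.57, limma adjusted p = 0.170 and 0.055). TREM1, an amplifier of myeloid inflammation, gave 151, 1220 and 14 counts against 20, 47 and 60. LCN2, a lipocalin of neutrophils and injured tubules, gave 63, 2311 and 7 counts against 17, 19 and 25, so that its fold rested on replicate 2. No member of the list exceeded 17 counts in replicate 3, so that library's own part in these values was background over a small effective size.

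The coagulation and platelet list, which holds PPBP, PF4 and, on the lower side, THBD, had 10 of 12 measured genes above 0 with all libraries (median 1.03) and 9 without replicate 3 (median 1.80). Leaving out replicate 2 of the first group gave 0.29 and 0.74, and leaving out replicate 1 gave 1.82 and 2.71. PLAT, the tissue plasminogen activator, gave 117, 474 and 5 counts against 43, 34 and 43, or 2.01 ± 0.67 and 2.16 ± 0.64 on the log2 scale (limma adjusted p = 0.245 and 0.125). MPIG6B, an inhibitory receptor of platelets and megakaryocytes, was low throughout, with 35, 136 and 2 counts against 8, 11 and 11. Its values in 3KO.7TG early bx were within background.

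The monocyte and macrophage list divided by how replicate 3 was treated. With all libraries 13 of its 26 measured genes lay above 0 (median 0.00), and without replicate 3 this was 23 (median 0.92), of which FCGR2B and LILRB2 were called. The second median was 0.31 when replicate 2 was left out as well. CD14, the monocyte co-receptor for endotoxin, gave 1869, 7055 and 13 counts against 933, 551 and 1319, and its log2 fold change moved from −0.15 ± 0.94 to 1.63 ± 0.52 when replicate 3 was left out (limma adjusted p = 0.990 and 0.146). ITGAM (CD11b) gave 922, 438 and 8 counts against 88, 72 and 322, and LILRB4 gave 317, 406 and 19 against 11, 36 and 173. ADAMDEC1, a protease of tissue macrophages, gave 853, 470 and 11 counts against 12, 20 and 209 and was higher in replicate 1 than in replicate 2; it did not pass (3.02 ± 0.84 and 3.58 ± 0.83, limma adjusted p = 0.181 and 0.057). CTSL, a lysosomal protease, gave 1414, 5495 and 9 counts against 116, 67 and 705 (3.51 ± 0.84 without replicate 3, limma adjusted p = 0.062).

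No inflammatory cytokine or NF-κB gene was called in either fit. Of 42 measured, 28 were above 0 with all libraries and 29 without replicate 3 (medians 0.29 and 0.49). Without replicate 3 the groups did not overlap on the higher side for 14 and on the lower side for 6, against 18.9% and 14.7% of all probes. IL1B gave 424, 1839 and 5 counts against 61, 74 and 273, and BCL3, a nuclear co-factor of NF-κB, gave 598, 954 and 11 against 42, 90 and 263 (2.46 ± 0.54 without replicate 3, limma adjusted p = 0.053). CXCL8, the main neutrophil chemoattractant, gave 236, 30569 and 3 counts against 35, 30 and 34: its log2 fold change of 5.93 ± 1.89 without replicate 3 did not pass (limma adjusted p = 0.146), and nearly all of its signal was in 1 library. ICAM1, the endothelial and epithelial ligand of leukocyte integrins, gave 383, 730 and 7 counts against 57, 85 and 189 (2.01 ± 0.47 without replicate 3, limma adjusted p = 0.060). Of 37 chemokines and chemokine receptors, 21 were above 0 with all libraries and 19 without replicate 3 (medians 0.08 and 0.04).

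The tubular injury and stress list, which holds KRT8, CDKN1A and BTG2, had 13 of 19 measured genes above 0 with all libraries (median 0.83) and 15 without replicate 3 (median 1.40). GDF15, a stress-induced secreted factor, gave 109, 617 and 2 counts against 33, 25 and 66, and EGR1, an immediate early gene, gave 248, 283 and 7 against 74, 37 and 93. Neither passed (limma adjusted p = 0.299 and 0.312 with all libraries, 0.109 and 0.172 without replicate 3). Without replicate 3 the median was 0.43 when replicate 2 of 1KO.1TG early R was left out as well.

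Type I interferon-induced genes lay on the other side. Of 17 measured, 16 had a log2 fold change below 0 in both fits, with medians of −1.26 and −1.14. Groups did not overlap on the lower side for 11 with all libraries and for 13 without replicate 3, against 7.43% and 14.7% of all probes; no member passed at an adjusted p under 0.05. MX2, an interferon-induced antiviral GTPase, gave 99, 83 and 4 counts against 357, 155 and 344, or −2.06 ± 0.54 and −1.97 ± 0.57 on the log2 scale (limma adjusted p = 0.170 and 0.109). IFI44 gave 188, 166 and 11 counts against 682, 258 and 601, and ISG15, the ubiquitin-like interferon product, 90, 71 and 8 against 349, 96 and 301. XAF1, an interferon-induced partner of apoptosis inhibitors, gave 113, 51 and 7 against 242, 128 and 321. In raw counts replicates 1 and 2 of 1KO.1TG early R lay below every 3KO.7TG early bx library for all of these 4 genes. They were picked from the list for their large moderated t in these libraries, which makes that order likely. The share of all probes with that order in raw counts was not taken. Only 2 of the 17 genes exceeded 17 counts in replicate 3. Less the median of all probes under the same setting, the list median ran from −1.76 to −0.92 over the alternatives with all libraries and from −1.68 to −1.03 over those without replicate 3.

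**Figure D4:**
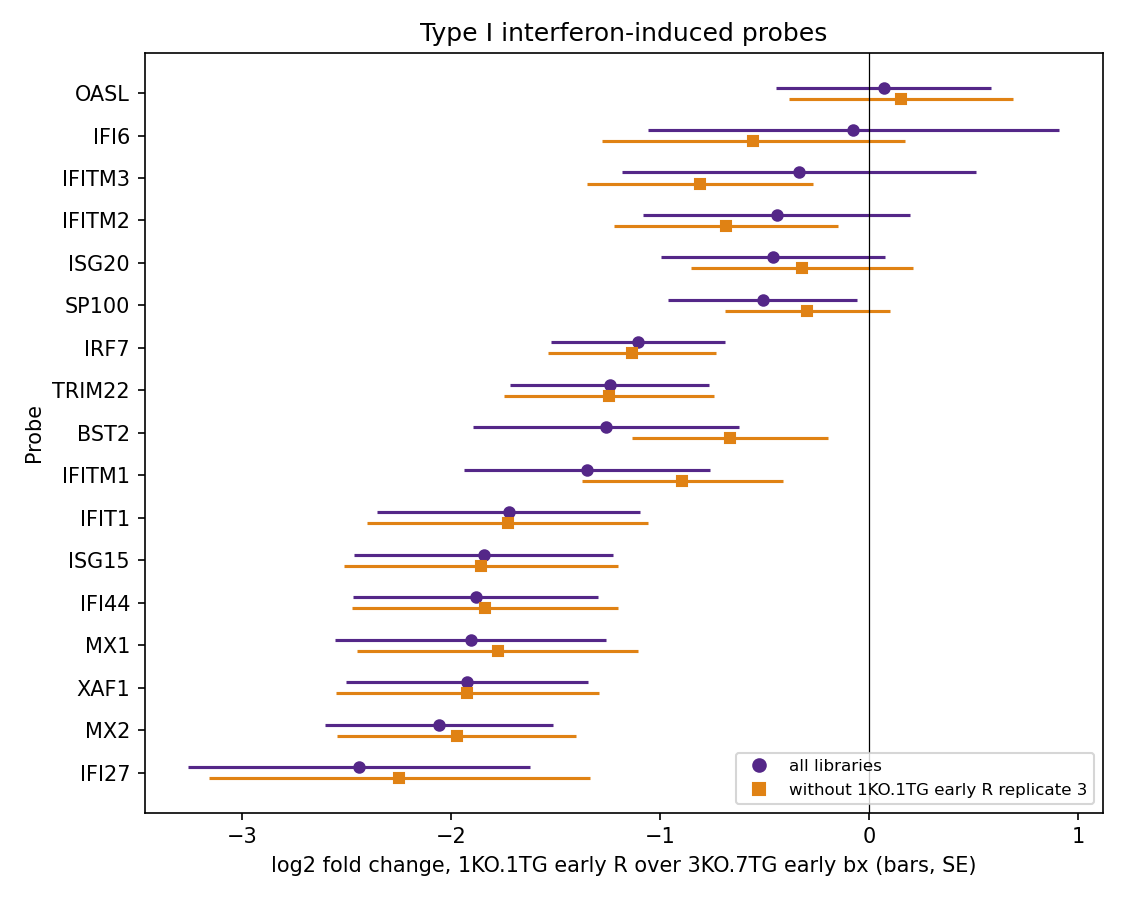
Log2 fold changes (1KO.1TG early R over 3KO.7TG early bx) with their SE for the 17 measured type I interferon-induced genes, with all libraries (circles) and with replicate 3 of 1KO.1TG early R left out (squares). All but OASL lie below 0 in both fits, and the lowest is IFI27.

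Regulators of cytokine signalling split. SOCS1, an inhibitor of JAK signalling, gave 248, 265 and 17 counts against 622, 374 and 1087. Replicates 1 and 2 stood at nearly the same level, below every 3KO.7TG early bx library. The gene passed without replicate 3 (−1.72 ± 0.36, limma adjusted p = 0.047) but not with it (−1.73 ± 0.43, limma adjusted p = 0.170). In replicate 3 its 17 counts did not exceed background. By total counts, the levels of replicates 1 and 2 would have given 5.168 and 3.902 there, and those of 3KO.7TG early bx 12.36 to 19.81. By effective size these were 14.0 and 13.9, and 36.54 to 56.98. Without replicate 3, SOCS1 was called in 13 of the 18 alternatives that left out no further library. SOCS3, its relative in the feedback on interleukin 6 type cytokines, pointed the other way with 186, 568 and 12 counts against 20, 32 and 51 (2.76 ± 0.72 and 2.91 ± 0.69, limma adjusted p = 0.170 and 0.062). The difference between SOCS1 and SOCS3 was not tested as such. AXL, a receptor tyrosine kinase that clears dying cells, and BLNK, the B cell linker, were close to the threshold on the lower side. AXL gave 232, 259 and 11 counts against 674, 425 and 631, and BLNK gave 210, 169 and 15 against 543, 384 and 432 (limma adjusted p = 0.170 for both with all libraries, 0.055 and 0.073 without replicate 3). TNFSF10 (TRAIL), a death ligand that interferon induces, gave 169, 94 and 4 against 269, 168 and 513.

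Complement genes other than CD46 showed no shared direction. Of 19 measured, 5 lay above 0 with all libraries and 8 without replicate 3 (medians −0.48 and −0.20), and only CD46 was called. C3, the central component, gave 231, 32 and 7 counts against 243, 200 and 391, at −2.08 ± 0.68 and −2.06 ± 0.73 (limma adjusted p = 0.245 and 0.172). CFB, the protease factor of the alternative pathway, gave 28, 17 and 5 counts against 299, 49 and 99, with replicate 2 at background. Endothelial genes were evenly placed with all libraries (16 of 33 above 0, median −0.03) and less so without replicate 3 (11 above 0, median −0.31); THBD was the only one called. ERG, an endothelial transcription factor, gave 327, 342 and 13 counts against 827, 517 and 556 (−1.47 ± 0.46 and −1.31 ± 0.42, limma adjusted p = 0.230 and 0.146). The endothelial marker PECAM1 exceeded 17 counts in 5 of the 6 libraries, and CDH5 in none, so that endothelium was not read evenly by this panel.

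KIT and its ligand KITLG were both lower, though 1KO.1TG early R was at background for KIT and at or near it for KITLG. KITLG gave 15, 23 and 17 counts against 137, 92 and 77, and KIT gave 15, 13 and 9 against 94, 82 and 50. Neither passed (limma adjusted p = 0.203 and 0.255 with all libraries, 0.055 and 0.077 without replicate 3). COL1A1, a fibrillar collagen chain, gave 15, 6 and 15 counts, all within background, against 96, 84 and 142. The matrix and fibrosis list as a whole had 4 of 19 measured genes above 0 with all libraries and 7 without replicate 3 (medians −0.39 and −0.11), while FN1 (fibronectin) gave 2425, 2173 and 8 counts against 143, 190 and 899.

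Kidney genes varied widely within the groups. UMOD gave 9325, 815 and 452 counts against 31665, 19750 and 8387, and AQP2 gave 367, 25 and 90 against 2534, 772 and 205. On the scaled values the groups overlapped for both (limma adjusted p = 0.318 and 0.350 with all libraries, 0.172 and 0.197 without replicate 3). Of 12 measured kidney genes 5 lay above 0 with all libraries and 4 without replicate 3 (medians −0.43 and −0.55). The proximal tubule receptor LRP2 was within background in all 6 libraries. The signal of reference probes marked for macaque host, relative to those marked for pig graft, also varied. Their species specificity was not checked. Of them, 3 of 4 pig and 4 of 5 macaque probes exceeded background in replicate 3 of 1KO.1TG early R. Averaged over 4 reference genes with probes marked for both species, the macaque signal over the pig signal was −2.16, −0.56 and −2.54 on the log2 scale in 1KO.1TG early R, against −3.62, −3.11 and −1.34. The groups overlapped, and the difference was 0.94 (two-sided exact permutation p = 0.4) and 1.33 without replicate 3 (exact permutation p = 0.3). With these numbers of libraries the test cannot go below 0.1, so it does not show that the host share was alike. Replicate 2 of 1KO.1TG early R, which had most of the S100A8, S100A9 and CXCL8 signal and the least UMOD for its size, had the highest host ratio; the part of host share in the leukocyte and kidney values was not tested. In bulk tissue fewer cells of a type and less RNA per cell cannot be told apart.

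Lymphocyte and antigen presentation genes gave no calls in either fit. T cell genes were above 0 for 11 of 25 with all libraries and 12 without replicate 3 (medians −0.19 and −0.05). None of the 25 exceeded 17 counts in replicate 3. Cytotoxic and NK cell genes went from 10 to 15 of 23 (medians −0.15 and 0.26): GNLY (granulysin) gave 5126, 3324 and 28 counts against 1090, 966 and 1718, and GZMA 6638, 5883 and 18 against 655, 932 and 4129. B and plasma cell genes were above 0 for 14 and 17 of 26 (medians 0.06 and 0.51). IGHM, the heavy chain of IgM, gave 1261, 1114 and 110 counts against 193, 371 and 515, so that it was 1 of 3 members above background in replicate 3, where its scaled level was as high as in replicates 1 and 2 (1.68 ± 0.57 and 1.42 ± 0.59, limma adjusted p = 0.245 and 0.207). IGHA1 gave 1394, 322 and 16 counts against 13, 178 and 230. MHC class I genes were below 0 for 11 of 11 with all libraries and 10 without replicate 3 (medians −0.49 and −0.50). MHC class II genes, of which 9 of 10 were above background in replicate 3, went from 1 above 0 with all libraries to 6 without it (medians −0.85 and 0.05). None of these lists was given a test.

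**Figure D5:**
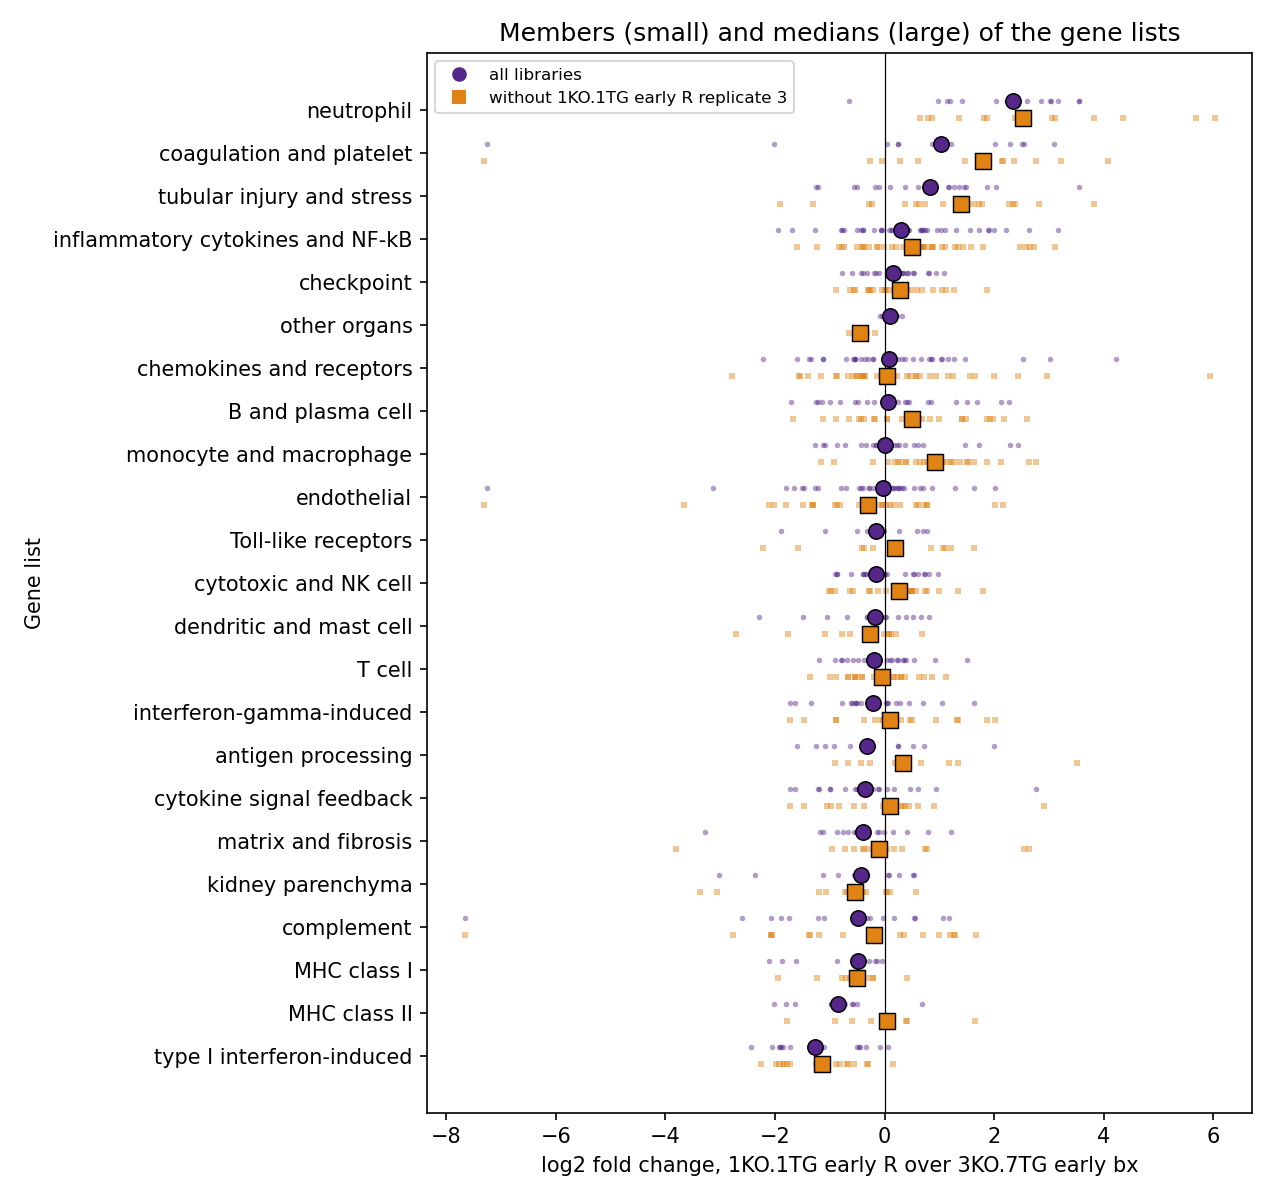
Log2 fold changes (1KO.1TG early R over 3KO.7TG early bx) of the measured members of the gene lists other than the transgene candidates and the reference, housekeeping and viral probes (small symbols) and their medians (large symbols), with all libraries (circles) and with replicate 3 of 1KO.1TG early R left out (squares). Of the lists drawn, the neutrophil list has the highest median in both fits and the type I interferon list the lowest; the monocyte and macrophage median moves from 0.00 to 0.92 and that of MHC class II from −0.85 to 0.05 when replicate 3 is left out.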

How the data were processed

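The deposited table holds log2 values by the authors for 767 probes in 9 libraries; 2 to the power of each was a whole number for 100% of values (relative tolerance 1e-04), so they were read as log2 of unscaled counts. Aligner, counter and build are not given in the sources used here. Groups came from the titles. Counts were scaled with trimmed-mean factors (trims 0.3 and 0.05; factors 0.761 to 2.71) and fitted with voom (offset 0.5), lmFit and eBayes in limma 3.58.1 (R 4.3.3), in 3 group means, two-sided, with Benjamini-Hochberg adjustment over 767 probes at 0.05. The fit was run on 9 libraries and on 8, without replicate 3 of 1KO.1TG early R. SE is the moderated standard error. Per-library levels are log2 CPM of the effective size.

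On simulated counts for this contrast the fit of 9 libraries called 16.7%, 85.1% and 95.5% of probes changed by 1, 2 and 3 on the log2 scale and 0.529% of unchanged ones (567 of 767 probes); with 8 libraries these were 27.3%, 86.6%, 91.0% and 1.41%. The simulation gave every probe the same dispersion, which was set in advance and not estimated from these libraries. These shares therefore need not hold for the real probes. Between libraries of like size, background makes folds of low probes too small.

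The members and the 27 gene lists (25 with 3 or more measured genes) were chosen with earlier results of these data known, and the transgene candidates come from field knowledge, not from the labels. Named genes were those called in either fit, the transgene candidates, up to 4 per list by moderated t and the 8 smallest p in each direction per fit; not all are printed, and marker genes of cell types are named beside them. Deviations of same-numbered libraries correlated at −0.15, −0.37 and −0.45 between the early groups. Within the 3KO.7TG line, across its time labels, same-numbered libraries gave 0.28, −0.34 and 0.48, and differing numbers gave −0.53 to 0.47. With 3 libraries per group, and replicate 3 of 1KO.1TG early R mostly at background, these values cannot decide whether libraries were paired. The main fits took all libraries as independent. Scaling, offset, filter, weights, samples in the fit, replicate block and each left-out library were varied. A few single-gene results are not reported here.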

Additional observations from a re-analysis of the deposited data

How the results depend on the processing

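CD46 and THBD were called lower under all 27 alternatives with all libraries and all 26 of the fit that leaves out replicate 3 of 1KO.1TG early R. CD47 was called under all but the unscaled values with all libraries. Other scalings moved the median of all 767 probes to between −0.77 and 0.82 with all libraries and between −0.56 and 0.79 without replicate 3, so the lists are best read against it. With all libraries (0 higher, 3 lower), calls were 7 higher with housekeeping scaling, 12 higher and 5 lower with total count scaling, 1 and 7 with macaque reference scaling, 1 and 5 with a mean count of at least 20, 4 and 6 with at least 50, and 23 and 10 with a weight per library. Leaving out single libraries gave 0 to 10 higher and 3 to 4 lower. Without replicate 3 (10 higher, 4 lower), higher calls were 5 with median scaling and 5 unscaled, 1 each with pig reference scaling, macaque reference scaling and the viral mean subtracted, 4 with a mean count of at least 20, 3 with the early groups alone, and 39 (9 lower) with a weight per library. A further left-out library gave 1 to 51 higher and 3 to 16 lower. The replicate block gave 0 higher and 3 lower with all libraries and 18 and 8 without replicate 3; the libraries share only a number, and no library is known to be paired. Of 54 genes followed in the fits whose values are printed, CD55 and CD14 turned sign, both with all libraries. CD55 went to −0.0171 on the unscaled values. CD14, near 0 in that fit, went to 1.41 with housekeeping scaling, 0.73 with quantile normalization, 1.30 with total count, 0.86 with pig reference and 0.0336 with macaque reference scaling, 0.0244 with 1 taken from each count, 0.74 with the viral mean subtracted, 0.25 and 0.70 with mean counts of at least 20 and 50, 0.27 when voom weights were dropped, 1.05 when libraries were weighted and 0.17 with the replicate block; over the left-out libraries it ran from −0.72 without replicate 2 to 1.63 without replicate 3. The species index difference was 0.61 to 1.27 without each reference gene in turn, and 0.95 to 1.65 without replicate 3. The cause of these shifts was not tested. In replicate 3, 79.5% of probes did not exceed 17 counts, so most of its levels are bounds.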

Other observations

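Within 1KO.1TG early R, replicates 1 and 2 correlated at r = 0.92 across probes, which are not independent, yet 52 probes were over 2 log2 units higher in replicate 2 and 21 in replicate 1. The genes with the widest gaps were chosen after their values were seen: CCL20, a chemokine for immature dendritic cells and Th17 cells, was 7.32 log2 units higher in replicate 2, CXCL8 6.92, LCN2 5.09 and IGHG3, an immunoglobulin G heavy chain, 4.76. The list means of neutrophil genes were 7.02 and 9.60 log2 CPM in replicates 1 and 2 and 5.50 to 5.78 in 3KO.7TG early bx, so that replicate 1 by itself also lay above that range.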
